A study of Mus musculus with 32 samples.

Results

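Notch signalling genes were followed across sorted donor T cells of mice, in a model of acute graft-versus-host disease. The 8 genes, chosen by their symbols, were the receptors Notch1 and Notch2, the DNA-binding factor Rbpj, its coactivators Maml1 and Maml2, and Dtx1, Hes1 and Nrarp, which Notch signalling can induce. All 8 were among the 16741 genes of the RNA table, and all 8 passed the filter on low values, a mean of at least 1 over the libraries.

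Bulk RNA sequencing covered 31 libraries in 10 groups. The donor cells were from C57Bl6 mice and were sorted from spleen and lymph nodes as CD4 conventional T cells, CD8 T cells or regulatory T cells (Treg). Cells of day 0, before transplantation, gave 2 libraries for each of the 3 cell types. CD4 and CD8 cells each gave 3 libraries from untreated syngeneic control recipients, 4 from Balb/c recipients with graft-versus-host disease and no treatment (allogeneic), and 4 from Balb/c recipients with graft-versus-host disease that were treated with Treg on day 0 (Treg-treated). Treg after transplantation, all from Treg-treated recipients, gave 3 libraries. Sample titles put the cells taken after transplantation at day 6 and the series description at day 8. No transgene or deletion is named for any group. Conditioning, age, sex and pooling of the mice are not given in the sources used here, and neither is whether libraries of a group came from separate animals, so p-values measure only the spread between these samples. Each library carries a name prefix, JL019 (17 libraries) or JL027 (14 libraries), whose meaning is not stated.

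Notch receptors sit in the cell membrane and are cut when they bind a Delta-like or Jagged ligand on a neighbouring cell. The freed inner part moves to the nucleus, where it joins RBPJ and a MAML coactivator on DNA and switches on genes such as Hes1, Dtx1 and Nrarp. In lymphoid tissue non-haematopoietic stromal cells are a known source of Delta-like ligands, and Notch signals in donor T cells are known to promote graft-versus-host disease in mice.

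A promoter window each of Rbpj and of Nrarp is shown because these genes gave most of the calls below with groups that did not overlap. Each sequence is the 250 bases before an annotated start, from RefSeq on build GRCm38.p6, written 5′ to 3′ along the gene's strand, and capitals mark the core of the RBPJ-binding site, TGGGAA, or its reverse complement.
Rbpj: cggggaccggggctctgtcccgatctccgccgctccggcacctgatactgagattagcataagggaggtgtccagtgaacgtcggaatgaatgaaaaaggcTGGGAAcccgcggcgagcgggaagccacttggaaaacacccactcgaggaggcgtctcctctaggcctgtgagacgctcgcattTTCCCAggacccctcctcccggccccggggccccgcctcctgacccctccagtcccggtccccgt
Nrarp: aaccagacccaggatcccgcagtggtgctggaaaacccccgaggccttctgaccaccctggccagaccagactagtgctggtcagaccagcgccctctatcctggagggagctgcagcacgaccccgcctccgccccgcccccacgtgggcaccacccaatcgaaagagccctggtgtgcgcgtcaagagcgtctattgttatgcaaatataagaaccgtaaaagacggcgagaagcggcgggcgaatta
The Rbpj window, chr5:53590096-53590345 on the plus strand, held the core on the gene's strand from base -149 and on the other strand from base -65, counted from the start. The Nrarp window, chr2:25180508-25180757 on the plus strand, held no match. RefSeq windows were matched by symbol for 7 of the 8 genes, 9 windows in all. Of these, 3 held the core on either strand, beside 21.6% of all 32851 windows of that length. The third was a window of Maml2, and the other 2 were overlapping windows of Rbpj. All 3 lie inside the spans of their genes given below, before internal annotated starts. The Maml2 window nearer the beginning of its gene held no core. A match describes letters and is no measured binding site, and no match says only that these letters are not in the window.

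On GRCm38.p6 the receptor genes lie at chr2:26457902-26503822 (Notch1, ENSMUSG00000026923) and chr3:98013538-98150367 (Notch2, ENSMUSG00000027878). Rbpj (ENSMUSG00000039191) lies at chr5:53555779-53657445, Maml1 (ENSMUSG00000050567) at chr11:50255634-50293131 and Maml2 (ENSMUSG00000031925) at chr9:13296561-13709533. Dtx1 (ENSMUSG00000029603) lies at chr5:120680203-120711867, Hes1 (ENSMUSG00000022528) at chr16:30065357-30067796 and Nrarp (ENSMUSG00000078202) at chr2:25180758-25183339. The gene spans run from 2440 bases for Hes1 and 2582 for Nrarp to 412973 for Maml2.

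Values are counts normalised by the authors, so the read depth behind them is unknown, and levels are compared between groups and never between genes. The mean normalised count of a gene lay between 1227 and 2385 in the 31 libraries. Cd4 averaged 33.2 to 61.1 in the CD8 groups against at least 8134 in every CD4 and Treg group, and Cd8a averaged at least 16902 in the CD8 groups. Foxp3, the defining factor of Treg, was lower in Treg at day 0 (320 ± 173, SD, n = 2) than in CD4 cells at day 0 (1062 ± 118, SD, n = 2), against the label of that sort. After transplantation the Treg held 281 ± 14.7 (SD, n = 3) and CD4 cells of Treg-treated recipients 156 ± 23.5 (SD, n = 4), but the means of CD4 allogeneic (438 ± 109, n = 4), CD4 syngeneic (480 ± 430, n = 3) and CD8 allogeneic cells (306 ± 147, n = 4) were above that of the Treg. The CD4 syngeneic library JL019-2 stood apart: the summed normalised count of the 13 myeloid markers, all 13 of them in the table, was 3665000 there and 91650 and 83060 in the other 2, Cd4 was 1659 against 14576 and 16526, and 7 T-cell markers summed to 52620 against 147510 and 127220. Results that rest on that library are given with and without it. In bulk samples fewer cells of a type and less RNA per cell cannot be told apart.

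Differences are log2 changes of value + 1, fitted with limma, and a gene was called where its Benjamini-Hochberg adjusted p over all genes was under 0.05. Of the 8 Notch genes, 5 changed in CD4 cells of Treg-treated against allogeneic recipients: Notch1, Notch2, Dtx1 and Nrarp fell and Rbpj rose, beside 11.5% of all genes called lower and 10.7% called higher. In CD8 cells the same comparison called 0 of 8 with limma, beside 0.0478% of all genes called higher and 0.0179% lower, and 1 had an unadjusted p under 0.05, as did 1851 of all 16741 genes. Against syngeneic recipients, Rbpj rose in allogeneic CD4 cells and in allogeneic CD8 cells. Nrarp fell in CD8 cells and Hes1 in CD4 cells, so 2 of 8 were called in each, beside 6.69% of all genes higher and 7.91% lower in CD4 and 10.4% higher and 10.7% lower in CD8. In each cell type the comparisons with Treg-treated and with syngeneic recipients use the same allogeneic libraries, so they are not independent.

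In syngeneic against day 0 cells Nrarp rose in both cell types. In CD4 cells Maml2 fell as well, beside 9.9% of all genes called higher and 3.13% called lower, and in CD8 cells Nrarp was the 1 called gene of 8, beside 13.0% higher and 11.3% lower. In Treg after transplantation against day 0, Nrarp fell and was the 1 gene of 8 called, beside 8.43% of all genes higher and 4.89% lower. Within Treg-treated recipients, Treg had more Notch1, Notch2 and Maml1 and less Rbpj and Nrarp than CD4 cells, 5 of 8 called, beside 13.9% of all genes higher and 16.1% lower. Where 1 or 2 of the 8 were called, that number was within 1 gene of what the share of all genes called would give. All 19 called changes kept their sign within each of the prefixes, where a group holds 1 or 2 libraries.

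**Figure D1:**
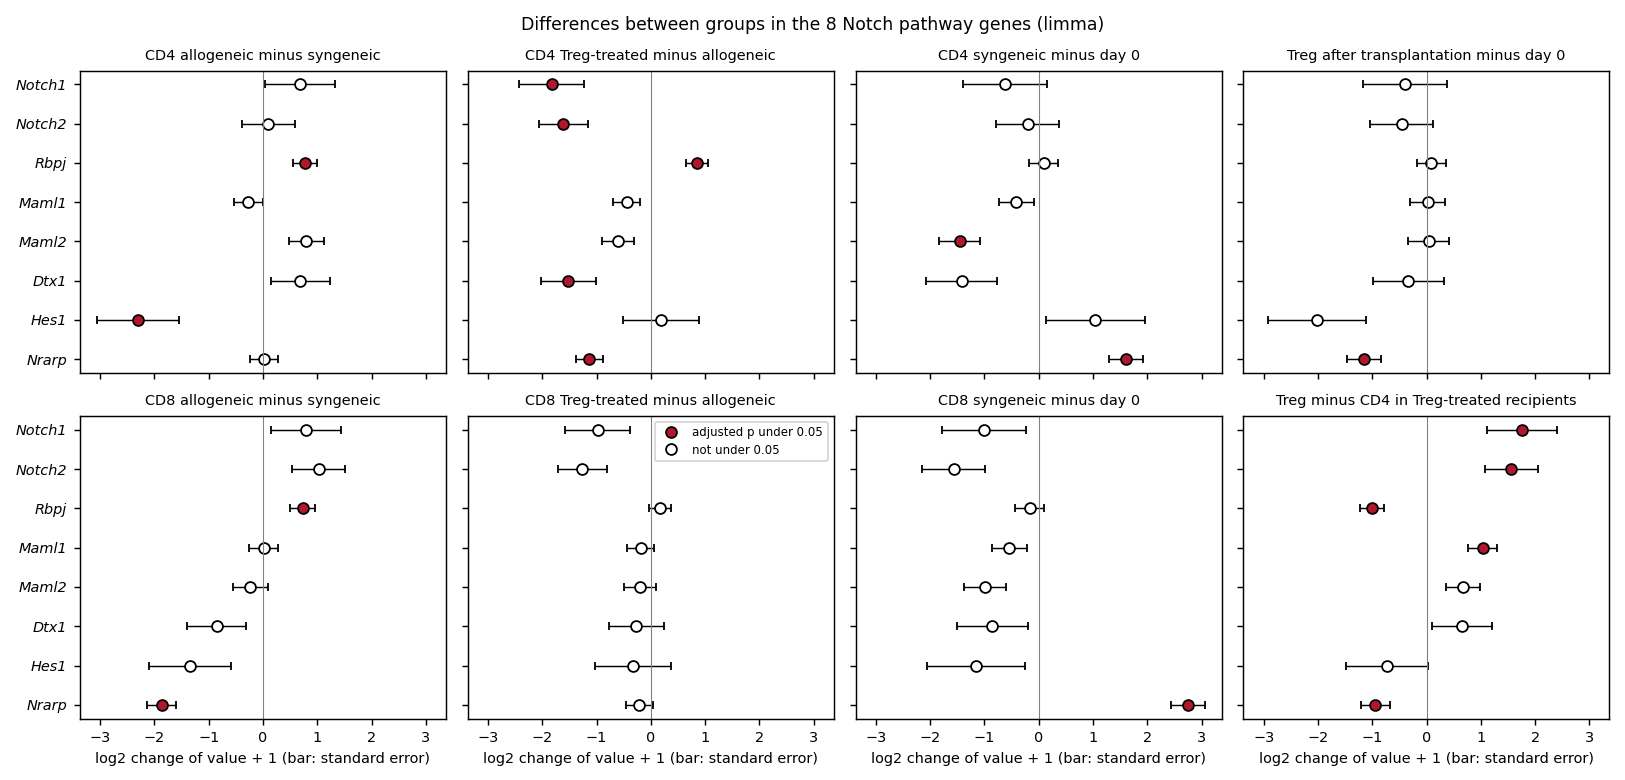
Log2 change of value + 1 for the 8 Notch genes in 8 comparisons, 1 panel per comparison with the genes on the vertical axis, points at the limma estimate, bars of 1 standard error, and red points where the adjusted p was under 0.05. Nrarp spans the widest range, from -1.87 in CD8 allogeneic minus syngeneic to 2.75 in CD8 syngeneic minus day 0, while CD8 Treg-treated minus allogeneic holds no red point.

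Notch1, the receptor that T-cell development in the thymus needs, was at 2457, 2998, 1432 and 2038 normalised counts in the 4 CD4 allogeneic libraries (JL019-1, JL019-2, JL027-1 and JL027-2). In the 4 CD4 Treg-treated libraries, in the same order, it was at 313, 447, 1655 and 577. Library JL027-1 of the Treg-treated group lay inside the allogeneic range and the other 3 lay below it. The mean was 748 ± 614 (SD, n = 4) with Treg treatment and 2232 ± 662 (SD, n = 4) without it, a log2 change of -1.83 (standard error 0.597, adjusted p = 0.0307 by limma).

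Notch2, a receptor best known for its need in marginal zone B cells, was at 1193, 1510, 591 and 797 normalised counts in the CD4 allogeneic libraries. In the Treg-treated ones it was at 161, 285, 775 and 270. The pattern over libraries was that of Notch1, with JL027-1 alone of the Treg-treated libraries inside the allogeneic range. The means were 372 ± 274 (SD, n = 4) and 1023 ± 410 (SD, n = 4), and the log2 change was -1.61 (standard error 0.452, adjusted p = 0.0176 by limma).

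Both receptor calls were sensitive to single libraries. Leaving out any of allogeneic JL019-1, JL019-2 or JL027-2, or of Treg-treated JL019-1, JL019-2 or JL027-2, ended the Notch1 call, with adjusted p from 0.057 to 0.114. For Notch2, 5 of these 6, all but allogeneic JL027-2, did so, with adjusted p from 0.0534 to 0.0769. Over all 8 omissions Notch1 kept a log2 change of -2.31 to -1.51 and Notch2 one of -2.05 to -1.30. Within libraries of prefix JL019 the log2 change was -2.86 for Notch1 and -2.64 for Notch2, and within JL027 it was -0.80 and -0.58.

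Libraries differed in how the level of a gene moved with the length of its span, and the receptors are long genes. The trend, in log2 per doubling of span against the mean library, was -0.113, -0.126, 0.0192 and -0.0768 in the CD4 Treg-treated libraries and between 0.0207 and 0.0451 in the allogeneic ones. The Treg-treated library whose Notch1 and Notch2 lay in the allogeneic range is the one whose trend was above 0. With the trend removed from each library, Notch1 changed by -1.68 (adjusted p = 0.0379) and Notch2 by -1.30 (adjusted p = 0.0256). Summed myeloid markers were also higher in the CD4 Treg-treated libraries, 28655 to 92438 against 10959 to 18727 in the allogeneic ones, and endothelial and stromal markers were lower, 1379 to 3221 against 3595 to 4281. Erythroid markers, 8 in the table, summed to 4832 to 55028 against 473 to 9745, and were higher within both prefixes. Cd4 itself was at 9108, 8722, 17587 and 9370 against 16706 to 21481, with JL027-1 alone inside the allogeneic range, as for the receptors. Myeloid and endothelial and stromal markers thus separated these groups for all 5 called genes, and the part of these lists in the results was not tested. No marker of these lists was at 0 in all libraries of either group. The summed T-cell markers were 146660 to 262110 against 141670 to 162470.

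**Figure D2:**
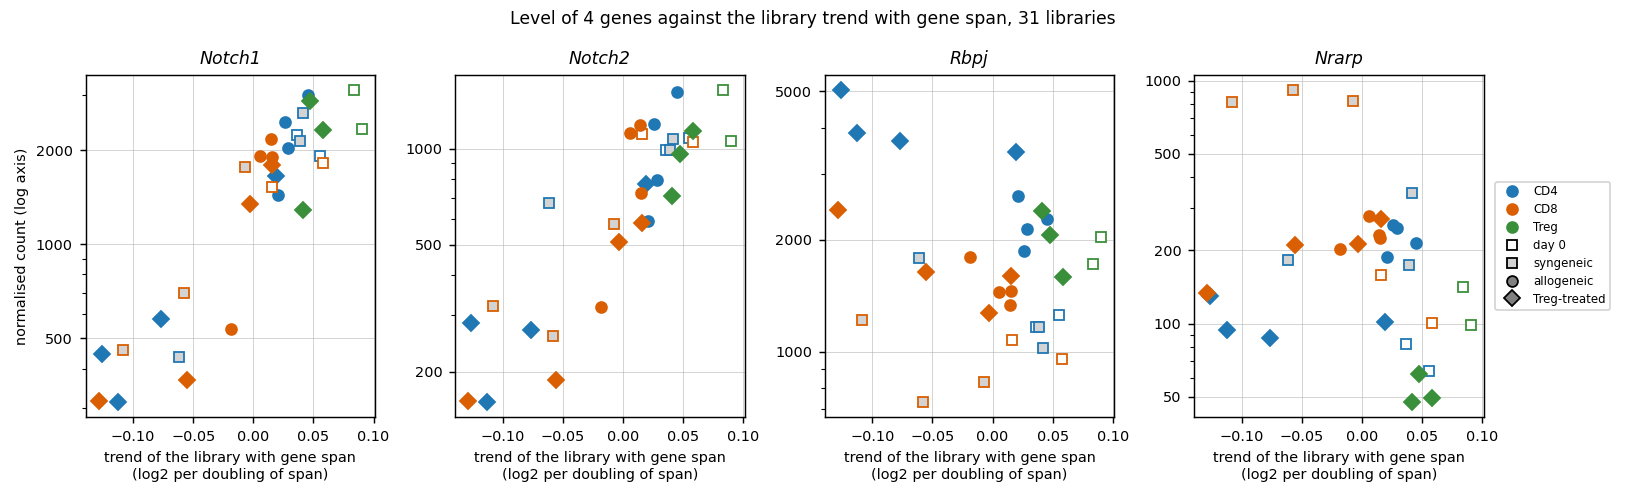
Normalised count (log axis) of Notch1, Notch2, Rbpj and Nrarp against each library's trend with gene span (log2 per doubling), 1 point per library, 31 libraries, coloured by cell type with a symbol for each treatment. CD4 Treg-treated libraries JL019-1 and JL019-2, with trends of -0.113 and -0.126, have 313 and 447 counts of Notch1, and those of day 0 Treg, with trends of 0.0902 and 0.0835, have 2341 and 3113.

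In CD8 cells the receptors gave no call between these groups. Notch1 was at 1909, 2177, 533 and 1901 in the CD8 allogeneic libraries and at 1342, 314, 1792 and 367 in the Treg-treated ones. The log2 change was -0.98 for Notch1 (limma adjusted p = 0.525) and -1.26 for Notch2 (unadjusted p = 0.00941, adjusted p = 0.316), and the groups overlapped for both. The 2 Treg-treated libraries low in Notch1, JL019-2 and JL027-2, had span trends of -0.129 and -0.0555, and the low allogeneic one, JL027-1, had -0.0186. The test of the difference between the CD8 and CD4 changes gave 0.85 for Notch1 (adjusted p = 0.898) and 0.35 for Notch2 (adjusted p = 0.924). That test called 0 of the 8 genes with limma, beside 0.0% of all genes called higher and 0.00597% lower. An unadjusted p under 0.05 was reached by 2, Nrarp and Rbpj, and by 430 of all 16741 genes.

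In Treg after transplantation Notch1 was at 2312, 1283 and 2882 normalised counts and Notch2 at 1139, 712 and 964. Each was higher than in the CD4 cells of Treg-treated recipients, with a log2 difference of 1.76 for Notch1 (standard error 0.645, adjusted p = 0.0403 by limma) and 1.56 for Notch2 (standard error 0.488, adjusted p = 0.018 by limma). CD4 library JL027-1 lay within the range of the Treg for both. Summed myeloid markers were 16409 to 19784 in these Treg against 28655 to 92438 in the CD4 cells, without overlap, while the other 5 marker lists overlapped. Their part in the 5 called differences between these groups was not tested. The Treg against CD4 difference of Notch1 lost its call in 5 of 7 omissions, those of CD4 JL019-1, JL019-2 or JL027-2 and of Treg JL019-1 or JL027 (adjusted p 0.0739 to 0.145), and with the span trend removed (1.58, adjusted p = 0.0533). That of Notch2 lost it without CD4 JL019-1, Treg JL019-1 or Treg JL027 (adjusted p 0.0546 to 0.079). At day 0 the means in Treg and CD4 cells were 2727 ± 546 and 2075 ± 228 for Notch1 (SD, n = 2 each), and 1291 ± 331 and 1032 ± 62.4 for Notch2, without a call.

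Ordered by group mean, Notch1 ran from Treg at day 0 (2727) down to CD4 cells of Treg-treated recipients (748), and Notch2 from Treg at day 0 (1291) down to CD8 cells of Treg-treated recipients (361). In neither order did any of the 9 neighbouring groups stand apart, since their libraries overlapped at every step. CD8 syngeneic cells were low in Notch2, at 258, 581 and 322 against 1048 and 1111 at day 0, groups that did not overlap, with a log2 change of -1.56 that missed the threshold (limma adjusted p = 0.0508). Notch1 in these 3 libraries was at 696, 1762 and 459, which overlapped the day 0 values of 1818 and 1529.

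**Figure D3:**
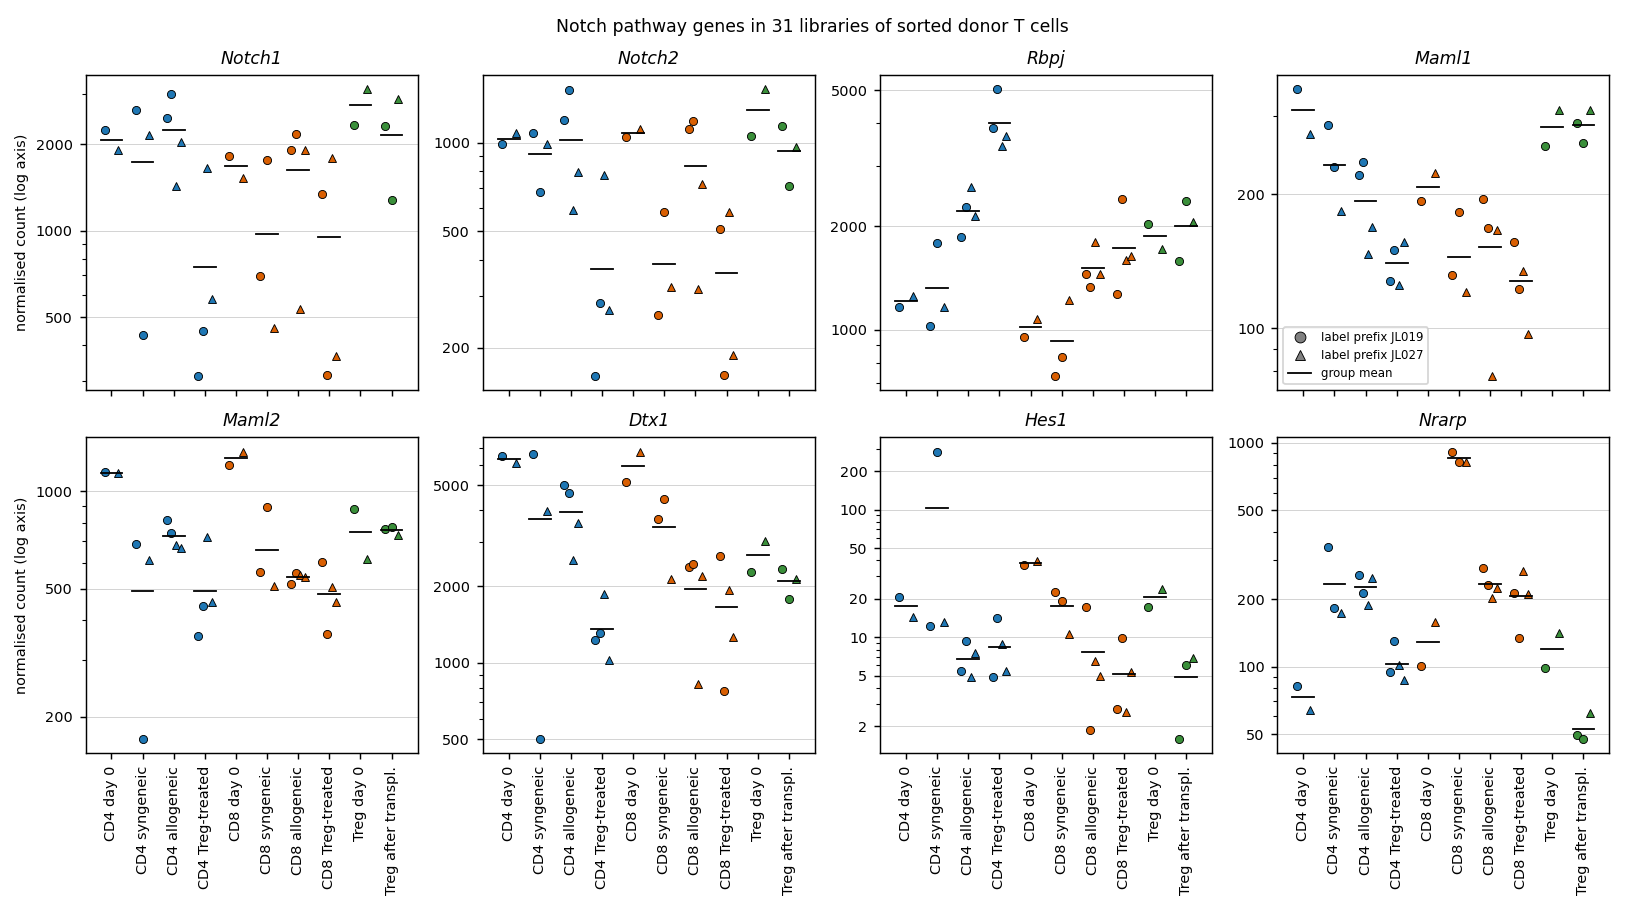
Normalised count (log axis) of each of the 8 Notch genes in every library of the 10 groups, circles for prefix JL019, triangles for JL027 and a line at the group mean. Nrarp in CD8 syngeneic cells, at 820 to 914, lies above every other library of its panel, and Rbpj in CD4 Treg-treated cells, at 3446 to 5042, lies above every other library of its own.

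Rbpj encodes the protein through which canonical Notch signals act on DNA, and which can hold target genes off when no Notch is present. In CD4 cells it was at 3864, 5042, 3446 and 3675 normalised counts in the Treg-treated libraries and at 1859, 2275, 2611 and 2140 in the allogeneic ones. All 4 Treg-treated libraries lay above all 4 allogeneic ones. The log2 change was 0.85 (standard error 0.207, adjusted p = 0.0124 by limma), opposite in sign to that of both receptors in the same libraries. Rbpj rose within both prefixes (log2 change 1.10 in JL019 and 0.59 in JL027) and with the span trend removed (1.11, adjusted p = 0.0107). Without Treg-treated library JL019-2 the change was 0.73 and missed the threshold (adjusted p = 0.056).

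Rbpj was already higher in allogeneic than in syngeneic cells. In CD4 syngeneic cells it was at 1024, 1789 and 1165, all below the 4 allogeneic libraries, with a log2 change of 0.78 (standard error 0.223, adjusted p = 0.0172 by limma). Without the library that stood apart, JL019-2, which held the 1789, the change was 1.01 (adjusted p = 0.00398). The call was lost without allogeneic JL027-1 (adjusted p = 0.0558), syngeneic JL019-1 (0.101) or syngeneic JL027 (0.0673), with the span trend removed (0.71, adjusted p = 0.0836), with median centring (0.82, adjusted p = 0.0508) and with the compared groups fitted alone (adjusted p = 0.0939).

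In CD8 cells Rbpj was at 1450, 1333, 1797 and 1452 in the allogeneic and at 732, 830 and 1216 in the syngeneic libraries. The groups did not overlap, and the log2 change was 0.73 (standard error 0.223, adjusted p = 0.0196 by limma). That call was lost without allogeneic JL027-1 (adjusted p = 0.0562), syngeneic JL019-1 (0.127) or syngeneic JL019-2 (0.0655), with the span trend removed (0.57, adjusted p = 0.153) and with median centring (0.68, adjusted p = 0.087). Summed myeloid markers were lower in allogeneic than in syngeneic libraries, 10959 to 18727 against 83060 to 3665000 in CD4 and 12742 to 20054 against 46699 to 68645 in CD8 cells, as were B-cell markers in CD8 cells, 1132 to 1258 against 3270 to 4072, and T-cell markers, 133110 to 150340 against 159260 to 259210. In CD8 cells dendritic markers, 7 of 8 in the table, were higher in the allogeneic libraries, 1192 to 2727 against 358 to 680, and so were endothelial and stromal markers, 2436 to 2919 against 984 to 1569. The part of these lists in the Rbpj changes was not tested. The change of Rbpj in the 2 cell types differed by -0.05 (adjusted p = 0.971). The CD8 Treg-treated libraries, at 1268, 2403, 1593 and 1635, overlapped the allogeneic ones (log2 change 0.16, adjusted p = 0.756).

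By group mean the order of Rbpj was CD4 Treg-treated (4007 ± 711), CD4 allogeneic (2221 ± 312), Treg after transplantation (2006 ± 401), Treg at day 0 (1876 ± 225), CD8 Treg-treated (1725 ± 481), CD8 allogeneic (1508 ± 200), CD4 syngeneic (1326 ± 407), CD4 day 0 (1208 ± 64.2), CD8 day 0 (1015 ± 87.3) and CD8 syngeneic (926 ± 256), each with its SD over 2 to 4 libraries. Only 2 of 9 neighbours stood apart, CD4 Treg-treated above CD4 allogeneic and CD4 day 0 above CD8 day 0. Treg after transplantation, at 1582, 2379 and 2055, lay below all 4 CD4 libraries of Treg-treated recipients, with a log2 difference of -1.0 (standard error 0.223, adjusted p = 0.00173 by limma) that held in 7 of 7 omissions of a library.

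Maml1 and Maml2 encode scaffolds that bring histone acetyltransferases to the Notch and RBPJ complex. Maml1 ran from 128 ± 24.7 (SD, n = 4) in CD8 Treg-treated cells to 309 ± 51.0 (SD, n = 2) in CD4 cells at day 0, the narrowest range of the 8 genes, a ratio of 2.42 between the highest and the lowest group mean. In Treg after transplantation it was at 289, 261 and 310, above all 4 CD4 libraries of Treg-treated recipients at 128, 150, 125 and 157. The log2 difference was 1.03 (standard error 0.270, adjusted p = 0.00588 by limma) and held in 7 of 7 omissions of a library.

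Maml2 was at 1149 and 1139 in CD4 cells at day 0 and at 687, 171 and 612 in syngeneic ones. The groups did not overlap, and the log2 change was -1.46 (standard error 0.379, adjusted p = 0.00985 by limma). The 171 came from library JL019-2, and without it the change was -0.82 and missed the threshold (adjusted p = 0.0792), as it did without either day 0 library (adjusted p = 0.0854 and 0.0867) or with the compared groups fitted alone (adjusted p = 0.351). In CD8 cells Maml2 was at 1205 and 1329 at day 0 and at 564, 898 and 510 in syngeneic recipients (log2 change -0.99, adjusted p = 0.056). Day 0 CD4 and CD8 cells held the 2 highest group means of Maml2, 1144 ± 6.94 and 1267 ± 87.5 (SD, n = 2 each).

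Dtx1, an E3 ubiquitin ligase of the Deltex family and a known Notch target in T cells, was at 4998, 4654, 2530 and 3564 in the CD4 allogeneic libraries. In the Treg-treated ones it was at 1226, 1311, 1858 and 1026. All 4 Treg-treated libraries lay below all 4 allogeneic ones, with a log2 change of -1.52 (standard error 0.506, adjusted p = 0.0332 by limma). The direction was the same within prefix JL019 (-1.93) and JL027 (-1.12). The call was lost without allogeneic JL019-1, JL019-2 or JL027-2 and without Treg-treated JL019-1, JL019-2 or JL027-2, with adjusted p from 0.0597 to 0.0933.

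Day 0 cells held the highest Dtx1 means, 6327 ± 286 in CD4 and 5957 ± 1153 in CD8 cells (SD, n = 2 each), and CD4 Treg-treated cells the lowest, 1355 ± 356 (SD, n = 4). In CD4 syngeneic cells Dtx1 was at 6618, 503 and 3966, the 503 in library JL019-2. In CD8 cells Dtx1 was at 3685, 4406 and 2145 in syngeneic, 2372, 2441, 825 and 2206 in allogeneic and 2636, 772, 1941 and 1264 in Treg-treated recipients. These groups overlapped, and neither allogeneic against syngeneic nor Treg-treated against allogeneic was called. Treg-treated against syngeneic was not tested.

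Hes1, a transcriptional repressor of the hairy family and a classical Notch target, was low in most groups, where the log2 scale of value + 1 understates changes. Group means lay between 4.83 ± 2.82 (SD, n = 3) in Treg after transplantation and 38.4 ± 1.97 (SD, n = 2) in CD8 cells at day 0, apart from CD4 syngeneic cells. There it was at 12.3, 285 and 13.1, the 285 in the library with high myeloid markers. Against the CD4 allogeneic libraries, at 5.46, 9.29, 4.88 and 7.49, the log2 change was -2.31 (standard error 0.756, adjusted p = 0.0379 by limma). Without that library it was -0.85 (adjusted p = 0.519), so the call rests on it. The call was also lost without allogeneic JL019-1, JL027-1 or JL027-2 (adjusted p = 0.0827, 0.0829 and 0.0619). In Treg, Hes1 was at 17.1 and 23.9 at day 0 and at 1.60, 6.07 and 6.82 after transplantation, groups that did not overlap but whose difference was not called (log2 change -2.02, adjusted p = 0.159).

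Nrarp encodes a small ankyrin-repeat protein that Notch signalling induces and that damps Notch signalling in turn. In CD8 cells it was at 914, 822 and 820 normalised counts in the syngeneic libraries, at 101 and 158 at day 0, and at 276, 232, 203 and 225 in the allogeneic libraries. The syngeneic libraries lay above every other library of the series. The log2 change from day 0 to syngeneic was 2.75 (standard error 0.315, adjusted p = 9.71e-07 by limma), a 6.71-fold rise. From syngeneic to allogeneic it was -1.87 (standard error 0.263, adjusted p = 5.24e-06 by limma). Both held in every omission of a library, the former at 2.42 to 3.07 over 5 and the latter at -1.95 to -1.80 over 7. The 2 comparisons share the syngeneic libraries. Summed myeloid markers were 46699 to 68645 in the CD8 syngeneic libraries against 12742 to 20054 in the allogeneic and 7168 to 7519 in the day 0 ones, and 8 B-cell markers summed to 3270 to 4072 against 1132 to 1258 and 2054 to 2766. Endothelial and stromal markers, 8 of 10 in the table, summed to 984 to 1569 against 2436 to 2919 in the allogeneic and 2487 to 2840 in the day 0 libraries. T-cell markers summed to 159260 to 259210 against 133110 to 150340 and 108190 to 137150. Dendritic markers separated the syngeneic from the allogeneic libraries, 358 to 680 against 1192 to 2727, and erythroid markers from the day 0 ones, 2987 to 9803 against 26370 to 29191. The part of these markers in the 2 changes was not tested.

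In CD4 cells Nrarp was at 344, 183 and 175 in the syngeneic and at 256, 214, 188 and 248 in the allogeneic libraries. These ranges overlapped, and the log2 change was 0.01 (SE 0.263, adjusted p = 0.982). The CD8 and CD4 changes from syngeneic to allogeneic differed by -1.88 (standard error 0.372, adjusted p = 0.00242 by limma), beside 2.69% of all genes called higher and 1.96% called lower for this difference, where Nrarp was the 1 gene of 8 called. Without CD4 syngeneic library JL019-2 the difference was -1.74 (adjusted p = 0.00669), and over 14 omissions it stayed called. Within prefix JL019 it was -1.67 and within JL027 -2.24.

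The CD4 day 0 libraries held 82.1 and 64.1 of Nrarp, below all 3 syngeneic libraries. The log2 change of 1.60 (standard error 0.315, adjusted p = 0.000697 by limma) was 1.74 without JL019-2 (adjusted p = 0.000672), and with these groups fitted alone it missed the threshold (adjusted p = 0.214). Summed myeloid markers were 83060 to 3665000 in CD4 syngeneic libraries against 1827 to 2656 at day 0, where Cd14 was at 0, and erythroid markers 4928 to 401420 against 1110 to 1781. Dendritic markers were at 303 to 5045 against 196 to 227, and endothelial and stromal ones at 992 to 3957 against 4703 to 5214. Their part in this change and in that of Maml2 was not tested. CD4 cells of Treg-treated recipients held 94.4, 130, 102 and 86.9, all below the allogeneic libraries and above day 0. The log2 change against allogeneic recipients was -1.13 (standard error 0.244, adjusted p = 0.00844 by limma). Among the 5 called genes of that comparison Nrarp alone stayed called in all 8 omissions of a library, at -1.25 to -1.06. It was -1.07 within prefix JL019, -1.19 within JL027, and -1.42 (adjusted p = 0.00444) with the span trend removed.

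In CD8 cells of Treg-treated recipients Nrarp was at 213, 134, 269 and 211, which overlapped the allogeneic libraries (log2 change -0.21, adjusted p = 0.725). The difference between the CD8 and CD4 changes was 0.92 (unadjusted p = 0.0128, adjusted p = 0.898), so the call in CD4 cells alone does not show that the 2 cell types differed. For Rbpj that difference was -0.68 (unadjusted p = 0.0275, adjusted p = 0.898).

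Treg held 98.5 and 142 of Nrarp at day 0 and 49.3, 47.7 and 61.8 after transplantation. The 3 later libraries were the lowest of the series, and the groups did not overlap. The log2 change was -1.15 (standard error 0.315, adjusted p = 0.0129 by limma) and went to -0.89 (adjusted p = 0.195) without day 0 library JL027 and to -0.95 (adjusted p = 0.0631) under quantile normalisation. Summed myeloid markers were 16409 to 19784 after transplantation against 4234 to 4933 at day 0. T-cell markers (133040 to 150940 against 124490 to 128420), dendritic markers (423 to 481 against 228 to 391) and erythroid markers (1537 to 44453 against 840 to 1050) were also higher after transplantation, and B-cell markers were lower, 594 to 904 against 1130 to 1298. Their part was not tested. Nrarp was lower in Treg than in CD4 cells of the same kind of recipient, by a log2 difference of -0.94 (standard error 0.263, adjusted p = 0.00911 by limma). With the span trend removed that difference was -0.61 and missed the threshold (adjusted p = 0.119).

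The order of Nrarp by group mean was CD8 syngeneic (852 ± 53.4), CD8 allogeneic (234 ± 30.7), CD4 syngeneic (234 ± 95.2), CD4 allogeneic (226 ± 31.3), CD8 Treg-treated (207 ± 55.3), CD8 day 0 (129 ± 40.6), Treg day 0 (120 ± 30.6), CD4 Treg-treated (103 ± 18.7), CD4 day 0 (73.1 ± 12.7) and Treg after transplantation (52.9 ± 7.73), each with its SD over 2 to 4 libraries. Of 9 neighbours 3 stood apart, the highest group from the next and the last 3 from each other. The ratio of the highest to the lowest group mean was 16.1, against 2.42 to 4.67 for the other genes except Hes1.

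The other 3 comparisons of cell types at day 0 or in allogeneic recipients called 0 of the 8. Treg against CD4 cells at day 0 gave 0 of 8 with limma, beside 2.54% of all genes higher and 1.34% lower, and 1 at an unadjusted p under 0.05, beside 2493 of all 16741 genes. CD8 against CD4 cells at day 0 gave 0 of 8 with limma, beside 2.22% higher and 1.1% lower, and 1 at an unadjusted p under 0.05, beside 1981 of all genes. CD8 against CD4 cells of allogeneic recipients gave 0 of 8 with limma, beside 3.05% higher and 3.09% lower, and 2 at an unadjusted p under 0.05, beside 2888 of all genes. Those 2 were Rbpj, lower in all 4 CD8 than in all 4 CD4 libraries (log2 difference -0.56, adjusted p = 0.124), and Dtx1 (-1.08, adjusted p = 0.266).

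Other genes of the pathway were taken from 6 lists with 80 genes, 70 of them in the table, that hold ligands and other receptors, enzymes that glycosylate and cut the receptors, regulators of trafficking and ubiquitin, nuclear co-factors, hairy family targets, and T-cell genes reported as Notch targets. In CD4 cells of Treg-treated against allogeneic recipients 21 of the 70 fell and 2 rose, beside 11.5% of all genes called lower and 10.7% higher, and with median centring 19 fell and 6 rose. With array weights 35 fell and 11 rose, beside 4117 lower and 3787 higher of all 16741 genes. The myeloid and the endothelial and stromal markers given with Notch1 and Notch2 separated these groups, and their part in these counts was not tested. Trafficking and ubiquitin regulators fell in 8 of 14 and rose in 0, with a median log2 change of -0.88. Nuclear co-factors fell in 8 of 18 (median -0.44), and glycosylation and cleavage enzymes fell in 5 of 15 and rose in 1 (median -0.54), where the median over all genes was -0.00. The T-cell target list gave 1 higher of 16 and no lower, with a median of -0.15. Of the 4 ligands and other receptors and the 3 hairy family genes in the table, limma called 0, and 0 had an unadjusted p under 0.05.

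Among the falling genes Dtx4, a relative of Dtx1, was at 83.2 ± 10.2 in Treg-treated and 366 ± 119 in allogeneic CD4 cells (SD, n = 4 each), a log2 change of -2.08 (limma adjusted p = 0.00467). Cbl, a ubiquitin ligase of receptor turnover, changed by -1.70 (adjusted p = 0.0123). Ncstn, a subunit of the gamma-secretase that makes the last cut of the receptor, changed by -1.06 (adjusted p = 0.0164), and Rfng, a Fringe glycosyltransferase, by -1.01 (adjusted p = 0.0233). The co-repressor Ctbp1 changed by -1.74 (adjusted p = 0.0123). Of the 2 that rose, Il4, a T-helper cytokine, was at 1536 ± 487 against 275 ± 70.1 (SD, n = 4 each), with a log2 change of 2.44 (adjusted p = 0.00241). The other, Psenen, also a gamma-secretase subunit, changed by 0.92 with overlapping groups, and it is named here after its value was seen. The total of 23 called genes ranged from 4 to 33 over the omissions of a library. The 21 lower genes became 10 without allogeneic JL019-1, 7 without JL019-2, 4 without Treg-treated JL019-1 or JL019-2, and 3 without Treg-treated JL027-2. The calls over all genes for these omissions are not given here, so the falls cannot be read as particular to the lists. Without Treg-treated JL027-1 the counts were 25 lower and 8 higher, beside 2925 lower and 2708 higher of all genes. In CD8 cells the same comparison called 0 of 70 with limma, beside 0.0478% of all genes higher and 0.0179% lower. There 10 of the 70 had an unadjusted p under 0.05, near the share of all genes, 1851 of 16741.

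**Figure D4:**
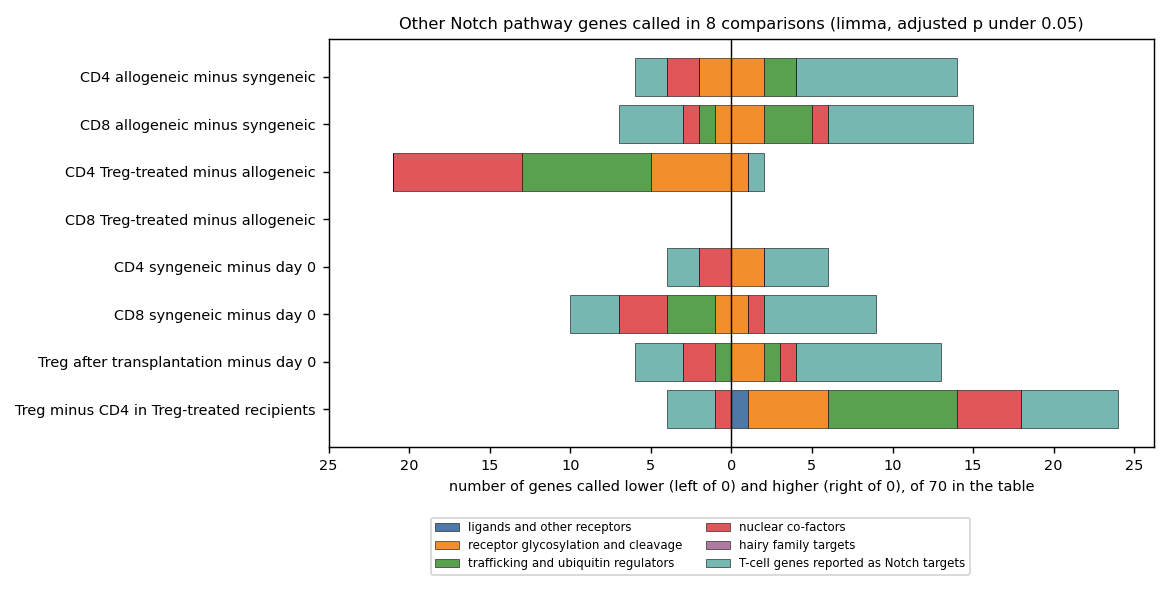
Number of the 70 genes of the Notch pathway lists called higher and lower by limma (adjusted p under 0.05) in 8 comparisons, as bars stacked by list, lower to the left of 0 and higher to the right. In CD4 Treg-treated minus allogeneic 21 were called lower and 2 higher, and in Treg minus CD4 of Treg-treated recipients 4 were called lower and 24 higher.

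Against syngeneic recipients more genes of these lists rose than fell, and most of those that rose were in the T-cell target list. In allogeneic CD4 cells 14 of 70 rose and 6 fell, beside 6.69% of all genes higher and 7.91% lower. Of these, the target list gave 10 higher and 2 lower of 16 (median log2 change 1.64). In allogeneic CD8 cells 15 rose and 7 fell, beside 10.4% of all genes higher and 10.7% lower, with 9 higher and 4 lower of 16 in the target list (median 1.04). Of the target list, Gzmb, a cytotoxic granule protease, was at 29473 ± 6095 (SD, n = 4) in allogeneic against 2881 ± 1220 (SD, n = 3) in syngeneic CD4 cells, and Ifng, the cytokine interferon gamma, rose by 2.40 on the log2 scale (limma adjusted p = 4.69e-06). In CD8 cells Il2ra, a subunit of the interleukin-2 receptor, rose by 4.53 (adjusted p = 1.76e-10) and Il10, an immunoregulatory cytokine, by 5.76 (adjusted p = 3.55e-10). Furin, the protease that makes the first cut of the receptor during its maturation, rose in both cell types, from 729 ± 209 to 6460 ± 540 in CD4 and from 363 ± 184 to 2888 ± 783 in CD8 cells (SD, n = 3 syngeneic and 4 allogeneic), with log2 changes of 3.18 (adjusted p = 2.40e-09) and 3.06 (adjusted p = 1.99e-09). Without CD4 syngeneic library JL019-2 the CD4 counts were 13 higher and 4 lower, and 13 and 3 without CD4 allogeneic JL019-1 or syngeneic JL027. With the compared groups fitted alone they were 12 higher and 0 lower, beside 610 and 491 of all 16741 genes, so that no lower call was left. The marker lists given with Rbpj separated these groups too, and their part in the counts was not tested.

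Of the 14 trafficking and ubiquitin regulators 2 rose and 0 fell in allogeneic CD4 cells, and 3 rose and 1 fell in CD8 cells. Of the 18 nuclear co-factors 0 rose and 2 fell in CD4 cells, and 1 rose and 1 fell in CD8 cells. Beside 6.69% of all genes higher and 7.91% lower in CD4 and 10.4% and 10.7% in CD8 cells, each of these counts was within 2 genes of what the share would give. Dtx4 rose in allogeneic CD4 cells by 1.68 (limma adjusted p = 0.00694), and it was among those that fell against these same allogeneic libraries in Treg-treated recipients. In allogeneic CD8 cells Numbl, a Numb family adaptor, rose by 2.63 (adjusted p = 0.000591), Tle1, a Groucho co-repressor that hairy factors recruit, by 1.95 (adjusted p = 3.76e-06), and Itch, a ubiquitin ligase, by 0.97 (adjusted p = 0.00462). Ncor1, a co-repressor bound by RBPJ complexes, fell by 0.71 (adjusted p = 0.00663).

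In Treg against CD4 cells of Treg-treated recipients 24 of 70 were higher and 4 lower, beside 13.9% of all genes higher and 16.1% lower, and with median centring 20 were higher and 8 lower. Summed myeloid markers separated these groups, 16409 to 19784 in the Treg and 28655 to 92438 in the CD4 cells, and their part in these counts was not tested. Trafficking and ubiquitin regulators were higher in 8 of 14 (median log2 difference 1.04), cleavage and glycosylation enzymes in 5 of 15, nuclear co-factors in 4 of 18 with 1 lower, and the T-cell target list had 6 higher and 3 lower of 16. The Notch ligand Jag1 had a mean of 52.6 ± 36.0 (SD, n = 3) in the Treg against 2.99 ± 2.02 (SD, n = 4) in the CD4 cells, a log2 difference of 3.76 (limma adjusted p = 0.000437). The histone acetyltransferases Kat2b and Ep300, which MAML proteins can recruit, differed by 1.47 (adjusted p = 0.000136) and 1.39 (adjusted p = 0.00412). Tcf7, a T-cell factor of naive and memory-like states, was lower by a log2 difference of -3.89 (adjusted p = 2.77e-06). Without CD4 library JL019-1 the counts were 14 higher and 4 lower, and without Treg library JL019-1 they were 15 and 4. The calls over all genes for these omissions are not given here. With array weights the counts were 37 and 12, beside 4542 and 4173 of all genes. This comparison shares the CD4 Treg-treated libraries with the one against allogeneic recipients.

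After transplantation against day 0, Treg gave 13 of 70 higher and 6 lower, beside 8.43% of all genes higher and 4.89% lower, with 9 higher and 3 lower of 16 in the T-cell target list (median 1.97). Leaving out a day 0 library gave fewer calls in both directions, with the other library alone in that group. The marker lists given with Nrarp separated these groups and those of syngeneic against day 0 cells, and their part in the counts was not tested. Gzmb was at 292 ± 123 (SD, n = 2) on day 0 and at 115350 ± 1928 (SD, n = 3) later. Dtx4 was at 411 ± 23.4 (SD, n = 2) on day 0 and at 45.0 ± 0.400 (SD, n = 3) later, which is a change of -3.16 in log2 (limma adjusted p = 6.73e-05). Syngeneic against day 0 gave 9 higher and 10 lower of 70 in CD8 cells, near the 13.0% and 11.3% of all genes, and 13 higher and 8 lower with median centring. In CD4 cells it gave 6 higher and 4 lower, near the 9.9% and 3.13% of all genes, and 5 and 2 without library JL019-2. The CD4 split was 6 and 11 with quantile normalisation and 6 and 9 with median centring. In both cell types fewer of the 70 were called when a day 0 library was left out, with the other library alone in that group. Without CD4 syngeneic JL019-1 the CD4 counts were 6 and 9. The calls over all genes for these omissions are not given here, so the changes cannot be read as particular to the lists. In CD8 cells the co-factors Tle1 and Maml3, the third Mastermind gene, changed by -2.52 (adjusted p = 4.21e-06) and -2.25 (adjusted p = 0.00351).

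Across the 31 libraries, which share groups and library preparation, the 8 genes were compared by Pearson's r of log2(value + 1), given as a description. Notch1 and Notch2 were the most alike of the 28 pairs, with r = 0.916. Dtx1 and Maml2 had r = 0.825 and Notch1 and Dtx1 r = 0.724, while Rbpj ran against Dtx1 with r = -0.578 and against Nrarp with r = -0.481. Among all genes with a mean of at least 20 the most alike were Mink1 (0.962) and Abca2 (0.951) for Notch1, Tmem131 (0.943) and Arap1 (0.933) for Notch2, and Susd3 (0.904) and Gzf1 (0.888) for Rbpj. For Dtx1 they were Rasal3 (0.962) and Xylt2 (0.956), for Maml1 Tnrc6b (0.914) and Lipe (0.894), and for Maml2 Ssh2 (0.885) and Pcmtd1 (0.883). Cdca7l (0.893) and Shmt2 (0.873) were the most alike to Nrarp. For Hes1 they were Rnf130 (0.827) and Apoe (0.821), over libraries that include the one with high myeloid markers.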

How the data were processed

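Members and lists were chosen with earlier results of these data known, and the alternatives were set with that knowledge. RNA of sorted cells was made into full-length cDNA (SMARTer v4) and Nextera XT libraries, per the labels' protocols. The values are a signal deposited by the authors as normalised counts per gene. FastQC 0.11.7, kallisto and DESeq2 are named, without roles, in the submitters' processing notes. Because the numbers have decimals and no common step size, read counts could not be recovered from them and the depth is unknown. A count test had been planned if the table held counts. Since it holds normalised values, the log2(value + 1) was fitted with limma 3.58.1 (R 4.3.3) in 1 model of group means over 31 libraries with trended, robust variances and Benjamini-Hochberg adjustment over 16741 genes for each comparison. Genes needed a mean of at least 1, which removed none. The procedure was checked on simulated data. Python 3.11.15, numpy 2.4.6, pandas 2.3.3 and matplotlib 3.10.9 made summaries and figures.

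All 8 Notch genes are named in all groups, and from each pathway list at most 2 genes per comparison, those of lowest adjusted p whose groups did not overlap, with 1 gene that met this rule not reported here. The genes of most alike pattern are the 2 of highest Pearson r, with predicted genes, mitochondrial genes and receptor and immunoglobulin segments left out. Gene spans came from RefSeq GRCm38.p6 and were found for 15875 genes (94.8%). The span trend is the slope of a library's log2 deviation from the gene means on the log2 of the span, over genes with a mean of at least 10.

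A recipient was taken as 1 prefix, treatment and number in the labels. Deviations of CD4 and CD8 libraries of 1 allogeneic recipient correlated at 0.159 to 0.470 in 4 of 4 recipients, and those of Treg-treated recipients at -0.118 to 0.489. The recipient as a replicate block (consensus correlation 0.145) was an alternative, with the prefix as a block, a mean of at least 10, a pseudocount of 0.1, quantile normalisation, median centring, array weights, removal of the span trend, the compared groups alone and each library left out. T-cell receptor tables and 1 sample without a group were not used here.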

Additional observations from a re-analysis of the deposited data

Results flagged for a closer look

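In CD8 cells of allogeneic recipients library JL027-1 lay far below the other 3 for Notch1 and for Dtx1. Notch1 was at 533.39 there and at 1901 to 2177 in the others, and Dtx1 at 824.55 against 2206 to 2441. In each case the gap to the nearest library, over the whole range, was above Dixon's critical value for 4 samples at 95%. This test was made for the 8 genes in the groups of 4, 32 times in all, and chance alone passes it about 1 time in 20. The change of Nrarp from syngeneic to allogeneic recipients differed between cell types: the CD8 change minus the CD4 change was -1.88 in log2 (standard error 0.372, adjusted p = 0.00242 by limma).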

How the results depend on the processing

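The depth of these libraries is unknown, and groups of 2 to 4 libraries limit what could be called. Where a group of 2 lost a library, the remaining one was assumed to vary like the other groups. The planned count-based alternative was not run, since the values are not counts. Of 104 values for the 8 genes, 19 were called, and among 1824 alternative values 0 called changes reversed, while 77 changed sign with neither value called. Over the omissions of a library 8 of the 19 stayed called throughout and 78 of 85 uncalled values stayed uncalled. Over the other settings 11 of 19 and 64 of 85 did so. The causes were not tested, except that groups fitted alone rest on fewer samples.

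Called genes among the 8 changed in number as follows. Allogeneic against syngeneic in CD4 cells gave 2, Rbpj and Hes1. It gave 1 with a pseudocount of 0.1 or array weights (Rbpj), with the span trend removed (Hes1) and with median centring, where both lost the call and Maml2 gained it (0.84, limma adjusted p = 0.0490). It gave 0 for the groups alone, and 0 to 2 over omissions of a library, where Maml2 took the place of Rbpj without syngeneic JL019-1 or JL027. In CD8 cells it gave 2, and 1 with median centring or the span trend removed (Nrarp), 6 with array weights, and 1 to 2 over omissions, where Notch2 took the place of Rbpj without allogeneic JL027-1. Treg-treated against allogeneic in CD4 cells gave 5, and 1 to 6 over omissions. Syngeneic against day 0 in CD4 cells gave 2, 0 for the groups alone, and 1 to 3 over omissions. In CD8 cells it gave 1, and 2 with a mean of at least 10, quantile normalisation, median centring or the groups alone, 3 with array weights, and 1 to 3 over omissions. Treg after transplantation against day 0 gave 1, 0 with quantile normalisation, 2 with array weights, and 0 to 1 over omissions. Treg against CD4 cells gave 0 at day 0, 3 with array weights and 2 alone, and in Treg-treated recipients 5, 3 with the span trend removed, and 3 to 6 over omissions. CD8 against CD4 cells of allogeneic recipients gave 0, 2 with array weights and 1 alone. The difference between cell types of the allogeneic minus syngeneic change gave 1, and 2 with the span trend removed or array weights, and that of the Treg-treated minus allogeneic change gave 0, and 3 with array weights.

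The recipient as a replicate block changed 1 of these counts: CD8 syngeneic against day 0 went from 1 to 2, with Notch2 called (limma adjusted p = 0.0468). It changed no other call of the 8 genes, and the prefix as a replicate block moved no count.

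For the 70 genes of the pathway lists these alternatives were chosen after seeing the data. Allogeneic against syngeneic gave 20 called genes in CD4 cells, 12 with the groups alone and 16 to 19 over omissions, and 22 in CD8 cells, 41 with array weights and 17 to 24 over omissions. Treg-treated against allogeneic gave 23 in CD4 cells, 46 with array weights and 4 to 33 over omissions, and 0 in CD8 cells, 5 with array weights. Syngeneic against day 0 gave 10 in CD4 cells, 17 with quantile normalisation, 20 with array weights, 2 alone and 4 to 15 over omissions, and 19 in CD8 cells, 9 to 21 over omissions. Treg after transplantation gave 19 and 15 to 18 over omissions. Treg against CD4 cells gave 4 at day 0, 12 with array weights, 16 alone and 3 to 4 over omissions, and 28 in Treg-treated recipients, 49 with array weights and 18 to 34 over omissions. CD8 against CD4 cells gave 6 at day 0, 13 with array weights, 15 alone and 2 to 3 over omissions, and 9 in allogeneic recipients, 17 with array weights, 14 alone and 9 to 10 over omissions. The difference of the allogeneic changes gave 10 (5 higher and 5 lower), 22 with array weights and 8 to 13 over omissions, 4 and 7 with median centring, and that of the Treg-treated changes 0, and 16 with array weights. Treg against CD4 cells at day 0 had 2 higher and 2 lower, and 5 and 11 alone.

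Array weights raised the calls over all 16741 genes as well. They went from 3524 to 7266 for allogeneic against syngeneic in CD8 cells, from 3710 to 7904 in CD4 and from 11 to 324 in CD8 cells for Treg-treated against allogeneic, from 2181 to 4210 in CD4 and from 4053 to 5714 in CD8 cells for syngeneic against day 0, and from 2231 to 4301 for Treg after transplantation. Treg against CD4 cells went from 651 to 2587 at day 0 and from 5016 to 8715 in Treg-treated recipients, and CD8 against CD4 cells from 556 to 1235 at day 0 and from 1029 to 2983 in allogeneic recipients. The difference of the allogeneic changes went from 779 to 2472 and that of the Treg-treated changes from 1 to 2811. With the groups alone 1101 genes were called for CD4 allogeneic against syngeneic 235 for CD4 syngeneic against day 0, 2081 for Treg against CD4 cells at day 0, and 1802 for CD8 against CD4 cells both at day 0 and in allogeneic recipients.

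Scaling moved the split of all called genes. CD4 Treg-treated against allogeneic had 1785 higher and 1925 lower, and 2814 and 1301 with median centring, which moved the median change of all genes to 0.25. Median centring moves all genes of a library by the same amount. The 5 called Notch genes thus kept their direction relative to that shift by construction, which tests nothing. CD4 syngeneic against day 0 had 1657 and 524, and 1777 and 1304 with quantile normalisation (median -0.16) or 1242 and 785 with median centring (-0.11). Treg against CD4 cells of Treg-treated recipients had 2319 and 2697, and 1701 and 3317 with median centring (median from 0.14 to -0.07).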
